A study of Mus musculus with 23 samples.

Results

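Scin, Phlda1, Zbtb10, Lax1 and Ctsw are 5 genes whose mRNA was higher in common myeloid progenitors (CMPs) from Cebpa knockout mice than in control CMPs. They were selected on that difference, out of 19937 genes measured by a probe set with a single gene symbol, and are followed here through MLL-AF9 transduction and into leukaemia. The series holds 23 whole-transcript microarrays of sorted mouse bone marrow cells in 9 groups. All donors carried floxed Cebpa alleles (C/EBPa f/f) and received 3 injections of poly I:C, and those with Mx.1-Cre lose the gene while those without it are the controls. The normal cells were control CMPs (4 arrays), control granulocyte-macrophage progenitors (GMPs, 3 arrays) and knockout CMPs (4 arrays), taken 5 days after the injections. For the other groups, KSLs (the Lin- Sca-1+ c-kit+ fraction that holds the stem cells) or CMPs were cultured, infected with a retrovirus that encodes the fusion oncogene MLL-AF9 and GFP, and transplanted into lethally irradiated congenic recipients with helper marrow. The sample titles of first recipients, with or without leukaemia, name KSLs as the infected cells. Titles of second recipients do not name them. Knockout recipients that stayed free of leukaemia gave GFP+ KSLs (2 arrays) and GFP+ CMPs (3 arrays). These arrays come from 3 recipients, 2 of which gave both populations. Leukaemic GMPs (L-GMPs) came from control leukaemias in first recipients (2 arrays) and in second recipients (2 arrays), and from a knockout leukaemia in the first recipient (1 array) and in second recipients (2 arrays). All 3 knockout L-GMP arrays trace to 1 leukaemia, which developed in a mouse injected with vectors for IL-3 and GM-CSF. The Cebpa genotype, that leukaemia and the cytokines therefore cannot be told apart in any comparison of knockout with control L-GMPs. That leukaemia and its cytokines also enter every other comparison of the knockout L-GMPs. The labels give no age, no Cre-positive control without floxed alleles, and no statement that the numbered arrays of a group are separate animals except for the MLL-AF9 recipients, so p-values measure the spread between arrays, which may be technical.

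Cebpa encodes C/EBPα, a transcription factor that CMPs need to become GMPs. MLL-AF9 drives acute myeloid leukaemia from cells that resemble GMPs. The members have unrelated roles. Scin (scinderin) severs and caps actin filaments in response to calcium, Phlda1 is an intracellular protein with a pleckstrin homology-like domain that growth factor signalling induces, and Zbtb10 is a zinc finger transcription factor of the BTB family. Lax1 is a membrane adaptor that dampens signalling from antigen receptors in lymphocytes, and Ctsw (cathepsin W) is a papain-like protease known from cytotoxic T and natural killer cells.

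Each member was read by 1 probe set, and no member was at the lower limit of 3 (log2) on any array. In RefSeq's GRCm38.p6 annotation Scin (probe set 10400072) lies on chr12:40059769-40134228, Phlda1 (10366346) on chr10:111506286-111508649, Zbtb10 (10490826) on chr3:9250567-9285333, Lax1 (10468898) on chr1:133679017-133693022 and Ctsw (10465059) on chr19:5465043-5468628. RefSeq's promoter table held 2 of the 5, Scin and Lax1, which are also the members whose knockout difference in L-GMPs was the largest and the nearest to 0. The 250 bases before the start of each are given 5′ to 3′ on the strand of the gene, here the minus strand for both, and for Lax1 they precede the more upstream of 2 starts that the table lists, both of which lie inside the span given above, downstream of its 5′ end.
Scin, chr12:40134229-40134478: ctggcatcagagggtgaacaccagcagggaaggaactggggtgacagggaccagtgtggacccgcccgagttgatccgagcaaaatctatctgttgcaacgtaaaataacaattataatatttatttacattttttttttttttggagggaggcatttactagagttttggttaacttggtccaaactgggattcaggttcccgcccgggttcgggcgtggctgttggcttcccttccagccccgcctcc
Lax1, chr1:133690109-133690358: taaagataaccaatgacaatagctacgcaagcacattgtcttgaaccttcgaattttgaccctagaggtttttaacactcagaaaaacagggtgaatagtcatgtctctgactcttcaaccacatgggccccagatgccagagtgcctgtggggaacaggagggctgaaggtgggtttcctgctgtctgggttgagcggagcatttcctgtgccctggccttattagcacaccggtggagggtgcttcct
Neither window, read on both strands, held TTNNGNAA, the C/EBP consensus, which occurred in 36.8% of the 32851 RefSeq promoter windows of the same length. Neither held GAGGAA, a core of PU.1 sites (in 23.3% of windows), nor TGANTCA, the AP-1 site (in 6.7%), so no base is in capitals. No match says only that these letters are not in these windows.

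Values are log2 levels after robust multi-array averaging (RMA), and levels were compared only within a gene, since probe sets differ in response. In bulk samples, fewer cells of a type and less RNA per cell cannot be told apart. Cebpa was at 7.19 to 7.83 on control CMP arrays and 4.99 to 5.55 on knockout CMP arrays, and its level in the other groups lay on the side of its label, at 4.33 to 5.22 in all MLL-AF9 knockout arrays and 7.33 to 7.96 in control GMPs and L-GMPs. Arrays within some groups varied more than in others: the median absolute deviation from the group mean was 0.155 in MLL-AF9 knockout KSLs, 0.161 in MLL-AF9 knockout CMPs and 0.150 in first-recipient control L-GMPs, against 0.0762 in control CMPs and 0.0776 in second-recipient knockout L-GMPs. A list of 8 granulocyte and monocyte genes averaged 9.66 to 10.04 in control CMPs, 6.34 to 7.40 in knockout CMPs, 5.08 to 6.36 in MLL-AF9 knockout KSLs and CMPs and 9.15 to 9.95 in L-GMPs of both genotypes. Cd34, a gene of the protein used to gate CMPs, averaged 10.73 in control CMPs and 8.40 in MLL-AF9 knockout CMPs, although both were sorted under that name. In 1 recipient, recipient 1, a list of 6 mast cell and basophil genes averaged 10.35 in KSLs and 9.60 in CMPs against 5.57 to 5.67 on the 3 other MLL-AF9 knockout arrays, and in recipient 3 a list of 5 megakaryocyte genes averaged 9.48 against 6.11 to 6.50. Results that rest on recipient 1 are given with and without it.

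Among genes higher on all knockout CMP arrays than on all control CMP arrays and past the adjusted threshold of 0.05, the members ranked from the second (Scin) to the eighth (Lax1) by size of the rise. The values that chose them are given as a description, with no test. Scin averaged 6.01 ± 0.39 (SD, n = 4) in control and 9.30 ± 0.38 (n = 4) in knockout CMPs, 9.78-fold apart. Phlda1 was 6.09-fold, Zbtb10 4.48-fold, Ctsw 3.90-fold and Lax1 3.73-fold higher. The gene just inside the set was Lax1 with a log2 rise of 1.8989, and just outside came Sla2 at 1.8983 and Ctla2a at 1.90; Tox (3.50), Clec4e (2.29) and Ctla2b (2.16) ranked among the members without being chosen. In that comparison 2.27% of all genes were called higher and 2.64% lower, a background from which nothing is read here, since it served to select the members.

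**Figure D1:**
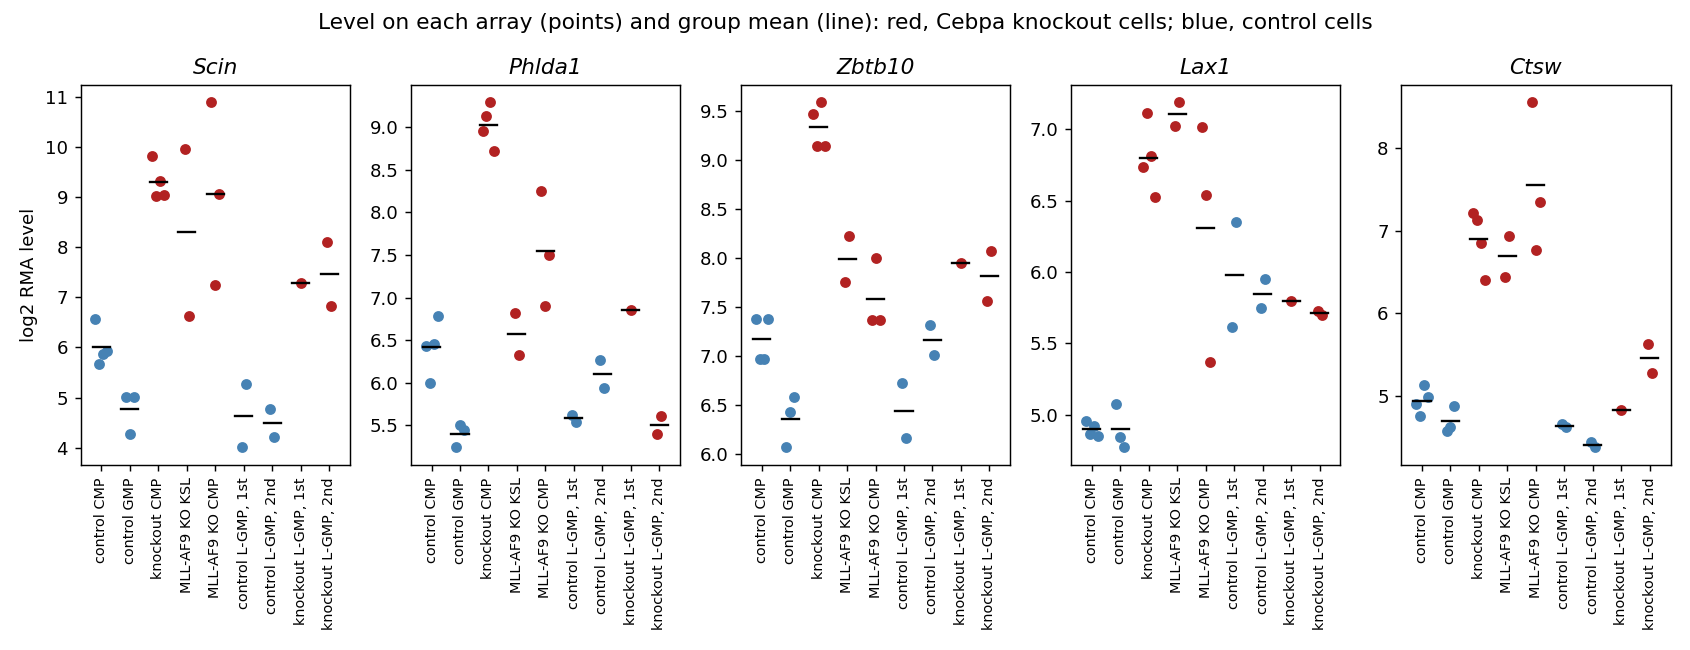
Log2 RMA level of each member (y axis, a separate scale per gene) on every array by sample group (x axis; 1st and 2nd are first and second recipients), with points for arrays and a line for the group mean. All 4 knockout CMP arrays lie above all 4 control CMP arrays for each gene, which is how the genes were chosen. On L-GMP arrays the red and blue points separate for Scin, Zbtb10 and Ctsw and overlap for Phlda1 and Lax1. Of all genes, 7.15% lay above control L-GMPs on every knockout L-GMP array and 6.76% below.

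The first question was whether the genes remained above control CMPs once MLL-AF9 was present. On the arrays of MLL-AF9 knockout CMPs, Scin, Phlda1, Lax1 and Ctsw were above every control CMP array, and Zbtb10 overlapped them. Of all genes, 6.26% lay above on every array and 9.89% below. The median log2 difference was 1.41 over the members and 0.00 over all genes, of which 1.74% were called higher and 4.28% lower (limma with Benjamini-Hochberg adjustment over all genes). Against knockout CMPs without the oncogene, Phlda1 and Zbtb10 were lower on every array, and Scin, Lax1 and Ctsw overlapped. Of all genes, 9.4% lay below on every array and 6.93% above, and 3.36% were called lower and 1.51% higher. The control and knockout CMP arrays are those on which the members were chosen as low and high, so members are compared with normal CMPs here and below as a description, with no test, and nothing is read against those shares. Both comparisons use the same 3 MLL-AF9 arrays, and MLL-AF9 cells had in addition been cultured and transplanted, so the oncogene and that handling cannot be told apart.

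The second question was whether the genes stayed high in leukaemia. All 5 members were lower on every knockout L-GMP array than on every knockout CMP array. The choice of the members on high knockout CMP values favours this difference, which is not tested. Of all genes, 21.1% lay below on every array and 18.6% above, and 10.7% were called lower and 8.32% higher. The tests are those against arrays that had no part in the choice. Against the MLL-AF9 knockout KSLs and CMPs from recipients without leukaemia, Phlda1, Lax1 and Ctsw fell in knockout L-GMPs (3 of 5 called lower; 5.93% of all genes lower, 7.27% higher). In control L-GMPs all 5 were lower than in those cells (5 of 5 called, with 10.5% of all genes lower and 8.51% higher). This comparison differs in Cebpa genotype as well. The comparisons in this paragraph set GMPs against KSLs or CMPs, so leukaemia and sorted cell type cannot be told apart. The 2 L-GMP comparisons share the MLL-AF9 arrays, and a member's 2 values are set side by side below.

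Within leukaemia, 1 of 5 members, Zbtb10, was called higher in knockout than in control L-GMPs, where 2.1% of all genes were higher and 1.16% lower. Against normal control GMPs, Zbtb10 was again the 1 of 5 called higher in knockout L-GMPs (3.89% of all genes higher, 6.49% lower), and Lax1 the 1 of 5 called higher in control L-GMPs (10.6% higher, 14.7% lower). No member passed in MLL-AF9 knockout CMPs against KSLs (0 of 5 by limma, 3 at an unadjusted p under 0.05; 2.02% of all genes higher and 1.3% lower). Control GMPs lay below control CMPs on every array for Scin, Phlda1 and Zbtb10 and overlapped them for Lax1 and Ctsw. Of all genes, 7.97% lay below on every array and 8.34% above, and 0.331% were called lower and 0.717% higher. With the recipient as a block, which pairs the KSLs and CMPs of the same 2 animals, Phlda1 was called higher in CMPs than in KSLs (0.98, adjusted p = 0.0189, against 0.0859 without the block). Without recipient 2's CMP array Phlda1 and Ctsw passed (adjusted p of 0.00845 and 0.0226), and without recipient 1's CMP array Lax1 did, as lower (0.0479).

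**Figure D2:**
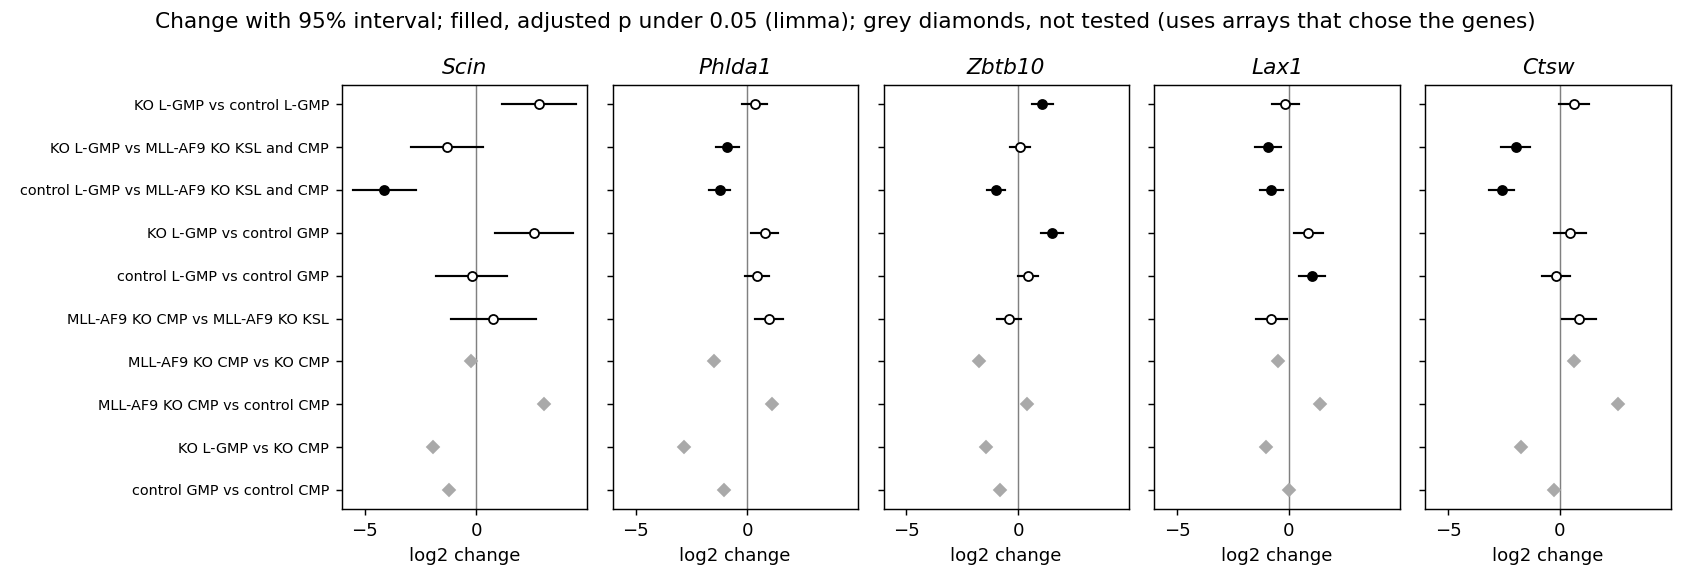
Log2 change of each member (x axis) in 10 comparisons (y axis), with the 95% interval as a line for the tested ones; filled circles passed an adjusted p of 0.05, open circles did not, and grey diamonds are comparisons with normal CMPs, not tested because those arrays chose the genes. Intervals are widest for Scin, whose circles in the comparisons of knockout L-GMPs with control L-GMPs (2.80) and with control GMPs (2.60) are open although far from 0.

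Scin encodes the actin-severing protein. Its levels were 6.56, 5.67, 5.86 and 5.94 on control CMP arrays, 5.01, 4.28 and 5.02 in control GMPs, and 9.82, 9.01, 9.32 and 9.04 in knockout CMPs. MLL-AF9 knockout KSLs stood at 9.95 and 6.63 and CMPs at 10.89, 7.23 and 9.05. Scin thus differed more between recipients than between the 2 populations of a recipient: both values of recipient 1 (9.95 and 10.89) exceeded both of recipient 2 (6.63 and 7.23). Control L-GMPs were at 4.01 and 5.28 in first and 4.76 and 4.21 in second recipients, and knockout L-GMPs at 7.28 in the first and 8.10 and 6.82 in second recipients, so that the lowest knockout L-GMP array was above the highest control one.

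MLL-AF9 knockout CMPs exceeded control CMPs in Scin by 3.05 ± 0.75 (SE; 8.28-fold), or by 2.13 without recipient 1. They differed from knockout CMPs by −0.24 ± 0.75, a value that ran from −1.16 without recipient 1 to 0.67 without recipient 2. Recipient 1 is the one with the high mast cell and basophil genes, and their part in its Scin level was not tested. In knockout CMPs, where Scin was high on every array, the same list averaged 5.53 to 6.70, below its 7.04 to 7.65 in control CMPs. Knockout L-GMPs were 6.99-fold above control L-GMPs, a log2 difference of 2.80 ± 0.78 that missed the threshold (adjusted p = 0.0625; 95% interval 1.15 to 4.46) and passed it with array weights, median centring or a filter on low values. They were 2.60 ± 0.83 above control GMPs (adjusted p = 0.0584). Against MLL-AF9 knockout KSLs and CMPs, control L-GMPs were lower by 17.3-fold (−4.11 ± 0.67, adjusted p = 0.000427), a value of −2.82 without recipient 1 (adjusted p = 0.000551) and a call lost in a fit of those arrays alone (0.0880). Knockout L-GMPs differed from the same cells by −1.31 ± 0.75 (adjusted p = 0.306), a value that came to −0.02 without recipient 1 and to −2.14 without recipient 2's KSL array, then with a call (adjusted p = 0.0454).

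The order of Scin's group means ran from knockout CMPs (9.30), MLL-AF9 knockout CMPs (9.06) and KSLs (8.29) through knockout L-GMPs of second (7.46) and first (7.28) recipients to control CMPs (6.01), control GMPs (4.77) and control L-GMPs (4.64 and 4.49). Arrays of neighbouring groups overlapped at every step but those from knockout L-GMPs to control CMPs and from control CMPs to control GMPs. Hence all 5 knockout groups stood above all 4 control groups in mean. Of the 7 other genes of the gelsolin family, to which Scin belongs, 1 was called higher in knockout CMPs, Svil, which encodes a membrane-linked actin binder (0.89 ± 0.22, adjusted p = 0.0302). The share of all genes called higher there was 2.27%. In knockout L-GMPs against knockout CMPs Svil fell by 1.24 on the log2 scale, as Gsn, gelsolin itself, rose by 1.29 and Capg, a capping protein, by 1.77. The genes with group means most like Scin's, by Pearson correlation over the 9 groups among 5080 genes that spanned at least 1 log2 unit, were the kinase gene Pim2 (0.97), Ldlrad4 (0.96) and Carmil2 (0.96). The 5080 leave out the other members and the kinds of gene left out of the selection rank.

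Phlda1, induced by growth factor signals, was at 6.43, 6.00, 6.46 and 6.78 in control CMPs, 5.24, 5.51 and 5.45 in control GMPs, and 8.96, 9.13, 9.29 and 8.72 in knockout CMPs. MLL-AF9 knockout KSLs were at 6.82 and 6.33 and CMPs at 8.25, 6.90 and 7.50. Every MLL-AF9 CMP array was therefore between the control and the knockout CMPs. Control L-GMPs were at 5.63 and 5.55 in first and 6.26 and 5.94 in second recipients, and the knockout leukaemia gave 6.85 in the first recipient but 5.40 and 5.61 in second recipients.

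In MLL-AF9 knockout CMPs Phlda1 was 2.78-fold below knockout CMPs (−1.47 ± 0.25; −1.82 without recipient 1) and 2.19-fold above control CMPs (1.13 ± 0.25; 0.78 without recipient 1). In knockout L-GMPs it was 7.18-fold below knockout CMPs (−2.84 ± 0.26). Knockout and control L-GMPs differed by 0.34 ± 0.26 (adjusted p = 0.517; 95% interval −0.21 to 0.89), and without the single first-recipient knockout array the sign turned, to −0.33. L-GMPs lay below MLL-AF9 knockout KSLs and CMPs by 1.84-fold in the knockout (−0.88 ± 0.25, adjusted p = 0.0277) and 2.33-fold in controls (−1.22 ± 0.22, adjusted p = 0.00111). The first of these was lost without recipient 1 (−0.59, adjusted p = 0.0777), without recipient 1's KSL array alone (0.0785), without either second-recipient knockout array (0.0799 and 0.0519), with array weights (0.0678) and with the knockout leukaemia as 1 sample (0.282). The control value was −0.92 without recipient 1 (adjusted p = 0.00332) and lost its call in a fit of those arrays alone (0.0926).

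By group mean Phlda1 was highest in knockout CMPs (9.03) and lowest in control GMPs (5.40), with second-recipient knockout L-GMPs (5.51) next to the latter and overlapping it. The other family members, Phlda2 and Phlda3, were not called in either direction in knockout CMPs. Of 11 genes that feed back on ERK signalling, which induces Phlda1, Dusp4, a phosphatase of the pathway, was called higher in knockout CMPs (1.19 ± 0.17, adjusted p = 0.000761). Dusp4, Dusp6 and Spry2 were called lower in MLL-AF9 knockout CMPs than in knockout CMPs (by 0.86, 1.12 and 1.41 on the log2 scale), as were 3.36% of all genes. The median of the 11 there was −0.15, and Dusp5 was higher in mean, at 7.40 against 6.51. In knockout L-GMPs 4 of the 11, led by Spred1, Dusp6 and Dusp4, were called lower than in knockout CMPs, as were 10.7% of all genes. The part of ERK signalling in the Phlda1 level was not tested. The patterns closest to Phlda1 over the 9 group means were those of Zfp655 and Adam30 (both 0.94) and Tsg101 (0.93).

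Zbtb10, the transcription factor, was at 7.38, 6.97, 6.97 and 7.38 in control CMPs, 6.07, 6.43 and 6.59 in control GMPs, and 9.47, 9.14, 9.59 and 9.15 in knockout CMPs. MLL-AF9 knockout KSLs were at 7.76 and 8.23, and CMPs at 7.37, 8.01 and 7.37, which overlapped the control CMPs. Control L-GMPs read 6.72 and 6.17 in first and 7.31 and 7.01 in second recipients, against 7.95 in the first and 7.56 and 8.07 in second recipients of the knockout leukaemia. Every knockout L-GMP array was thus above every control L-GMP and every control GMP array.

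In MLL-AF9 knockout CMPs Zbtb10 was 3.37-fold below knockout CMPs (−1.75 ± 0.21) and differed from control CMPs by 0.41 ± 0.21. In knockout L-GMPs it was 2.11-fold above control L-GMPs (1.08 ± 0.22, adjusted p = 0.0127; higher on 3 of 3 arrays) and 2.87-fold above control GMPs (1.52 ± 0.24, adjusted p = 0.000691). The first call was lost with the knockout leukaemia counted as 1 sample, in a fit of the L-GMP arrays alone, and without the second array from second recipients (adjusted p of 0.242, 0.236 and 0.0533). Knockout L-GMPs were below knockout CMPs (−1.46 ± 0.22, not tested) and differed from MLL-AF9 knockout KSLs and CMPs by 0.09 ± 0.21 (adjusted p = 0.854; 95% interval −0.36 to 0.55), while control L-GMPs were lower than those cells (−0.98 ± 0.19, adjusted p = 0.00165). The last call was lost with array weights (adjusted p = 0.102) and in a fit of those arrays alone (0.0781). The difference of 0.09 was −0.08 without recipient 1.

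The group means of Zbtb10 put knockout CMPs (9.34) apart from all others, with a gap of 1.35 and no overlap to the next group, MLL-AF9 knockout KSLs (7.99). The 4 groups with MLL-AF9 in knockout cells spanned 7.58 to 7.99 and overlapped one another in order. Among 38 other genes of the ZBTB family, 1 was called higher in knockout CMPs (2.27% of all genes), Zbtb20 (1.03 ± 0.16, adjusted p = 0.00123), which also was called lower in MLL-AF9 knockout CMPs than in knockout CMPs (−0.74 ± 0.17, adjusted p = 0.0222). Between knockout and control L-GMPs, Zbtb25 was called higher (0.97) and Zbtb40 lower (−0.57). The nearest patterns over the group means were Nfkbiz (0.93), Rab5a (0.93) and Mapk6 (0.92).

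Lax1, the adaptor, was at 4.95, 4.86, 4.92 and 4.85 in control CMPs, 5.08, 4.84 and 4.77 in control GMPs, and 6.74, 7.11, 6.81 and 6.52 in knockout CMPs. MLL-AF9 knockout KSLs were at 7.02 and 7.19, and CMPs at 7.02, 6.54 and 5.37, the last in recipient 3, which had the high megakaryocyte genes. L-GMPs were at 5.61, 6.35, 5.75 and 5.95 in controls and at 5.80, 5.73 and 5.70 in the knockout. Lax1 therefore overlapped between genotypes in leukaemia, and all 7 L-GMP arrays were above all 7 arrays of control CMPs and GMPs.

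MLL-AF9 knockout CMPs exceeded control CMPs in Lax1 by 1.41 ± 0.28 (2.66-fold; 1.06 without recipient 1). They differed from knockout CMPs by −0.49 ± 0.28, a value of −0.84 without recipient 1 and −0.02 without recipient 3. Knockout and control L-GMPs differed by −0.16 ± 0.29 (adjusted p = 0.831; 95% interval −0.77 to 0.45). Control L-GMPs exceeded control GMPs by 1.02 ± 0.28 (2.03-fold, adjusted p = 0.0150), a call lost without first-recipient control array 2 (adjusted p up to 0.0633), GMP array 2 or GMP array 3, and knockout L-GMPs by 0.86 ± 0.30 (adjusted p = 0.0876). Lax1 was lower in L-GMPs than in MLL-AF9 knockout KSLs and CMPs, both in the knockout (−0.95 ± 0.28, adjusted p = 0.0307) and in controls (−0.79 ± 0.25, adjusted p = 0.0332), the latter lost without recipient 1 (−0.66, adjusted p = 0.0605). Neither call was firm: the knockout one was lost without any 1 of 4 arrays (both second-recipient L-GMPs, and the KSLs and CMPs of recipient 2), and the control one without any 1 of 6 (all control L-GMPs but first-recipient array 2, and the KSLs of recipient 2 and CMPs of recipients 1 and 2), with adjusted p between 0.0518 and 0.110. With the knockout leukaemia as 1 sample the knockout value had an adjusted p of 0.303. Knockout L-GMPs were lower than knockout CMPs by 2.06-fold (−1.04 ± 0.29, not tested).

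In order of group means Lax1 ran from MLL-AF9 knockout KSLs (7.10) and knockout CMPs (6.80) to control CMPs and GMPs, which tied at 4.90. Of 6 other adaptors of this kind, Lat, which couples the T cell receptor to its downstream enzymes, was called higher in knockout CMPs (1.84 ± 0.34, adjusted p = 0.00489) and in MLL-AF9 knockout CMPs against control CMPs (2.47 ± 0.37, adjusted p = 0.000959). Lat fell by 2.93 in knockout L-GMPs and by 2.74 in control L-GMPs relative to MLL-AF9 knockout KSLs and CMPs, both larger on the log2 scale than the changes of Lax1. Lat2, its counterpart in B and myeloid cells, was called higher in MLL-AF9 knockout CMPs than in control CMPs (1.36 ± 0.34, adjusted p = 0.0251) and in L-GMPs than in control GMPs (1.35 in the knockout, 1.28 in controls). The patterns most like Lax1 were Zfhx3 (0.93), Tox (0.92), a regulator of lymphocyte development, and Avl9 (0.91).

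Ctsw, the protease of cytotoxic lymphocytes, was at 4.90, 4.75, 5.13 and 4.98 in control CMPs, 4.57, 4.62 and 4.87 in control GMPs, and 7.21, 7.13, 6.86 and 6.41 in knockout CMPs. MLL-AF9 knockout KSLs were at 6.44 and 6.94, and CMPs at 8.56, 6.76 and 7.34, again highest in the CMPs of recipient 1. Control L-GMPs read 4.65, 4.62, 4.44 and 4.37, against 4.83 in the first and 5.62 and 5.28 in second recipients of the knockout leukaemia. The genotypes did not overlap in L-GMPs, but the knockout values were near those of control CMPs rather than those of knockout CMPs.

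Ctsw was 6.13-fold higher in MLL-AF9 knockout CMPs than in control CMPs (2.62 ± 0.30, and 2.11 without recipient 1). It differed from knockout CMPs by 0.65 ± 0.30 (0.15 without recipient 1 and 1.05 without recipient 2). It fell 3.96-fold in knockout L-GMPs (−1.98 ± 0.30, adjusted p = 0.000289) and 6.08-fold in control L-GMPs (−2.60 ± 0.27, adjusted p = 5.46e-06) relative to MLL-AF9 knockout KSLs and CMPs. The first of these was lost in a fit of those arrays alone (adjusted p = 0.136). Knockout L-GMPs were 3.39-fold below knockout CMPs (−1.76 ± 0.31, not tested). The difference between knockout and control L-GMPs, 0.62 ± 0.31, did not pass (adjusted p = 0.296; 95% interval −0.05 to 1.28).

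A list of 12 T and NK cell genes averaged 4.84 to 5.07 in control CMPs, 5.18 to 5.46 in knockout CMPs, 5.46 to 6.14 in MLL-AF9 knockout KSLs and CMPs and 4.48 to 4.77 in L-GMPs. None of the 12 was called in knockout against control CMPs by limma, and 2 had an unadjusted p under 0.05, Gzmb (2.32), a granule protease gene, and Il2rb (0.84), a cytokine receptor chain. Gzmb weighed most in the list's average: the median difference of the 12 was 0.15, and Cd3e, Cd3d, Cd3g and Tbx21 differed by −0.18, −0.13, −0.03 and −0.02. Cd3e, which defines T cells, averaged 5.24 in control CMPs and 5.06 in knockout CMPs, and Ncr1, which defines NK cells, 3.40 and 3.80, near the lower limit. In knockout L-GMPs 4 of the 12 and in control L-GMPs 5 of the 12 were called lower than in MLL-AF9 knockout KSLs and CMPs, as were 5.93% and 10.5% of all genes. The log2 differences for Gzmb were −6.10 and −5.92. The part of such cells in the Ctsw level was not tested.

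**Figure D3:**
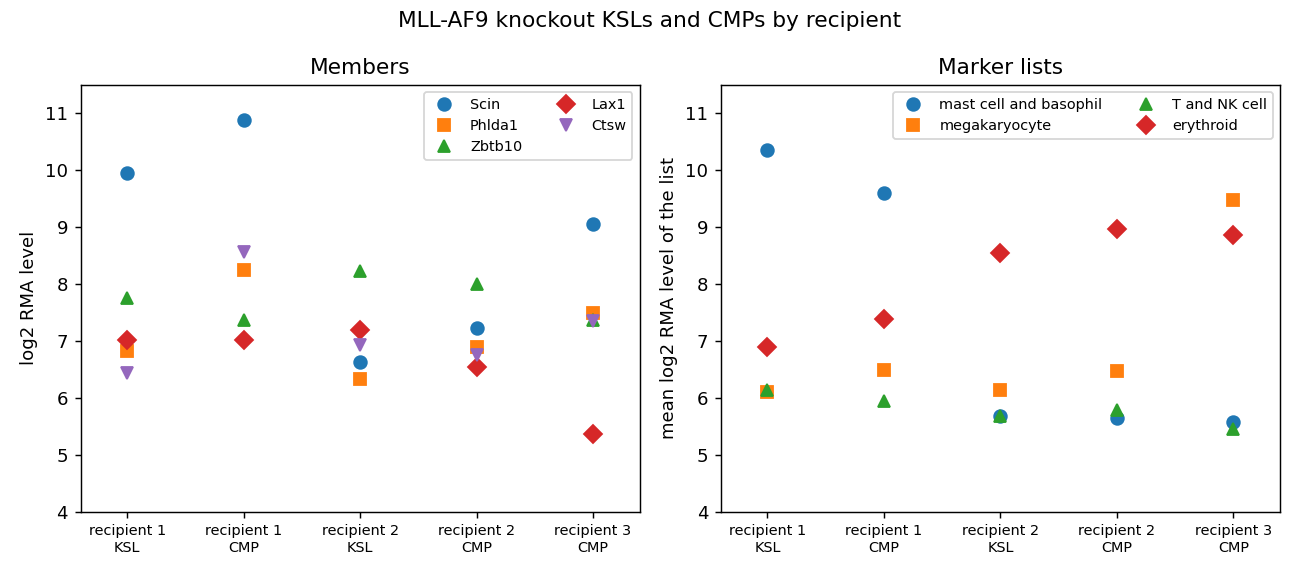
Left, log2 RMA level of the 5 members, and right, mean log2 level of 4 marker lists (y axes), on the 5 arrays of MLL-AF9 knockout KSLs and CMPs by recipient (x axis); heights are to be read within a gene or list, not between them. Recipient 1 has the high mast cell and basophil genes (10.35 and 9.60) and the highest Scin (9.95 and 10.89), and recipient 3 the high megakaryocyte genes (9.48) and the lowest Lax1 (5.37).

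Several proteases of the Ctsw family moved the other way. Of 9 other papain-like cathepsins, which digest proteins in lysosomes, 4 were called lower in knockout CMPs, where Ctsw was higher, with the largest changes in Ctsh (−2.62 ± 0.23), Ctss (−2.42 ± 0.48) and Ctsz (−1.50 ± 0.16). The share of all genes called lower there was 2.64%. In L-GMPs of each genotype 5 of the 9 were called higher than in MLL-AF9 knockout KSLs and CMPs, comparisons in which Ctsw was called lower. The shares of all genes called higher were 7.27% in knockout and 8.51% in control L-GMPs. Ctsh, for example, was higher by 4.08 ± 0.25 in knockout L-GMPs (adjusted p = 3.45e-08) and by 3.29 ± 0.22 in control L-GMPs (adjusted p = 7.37e-08). Among 6 cystatins, inhibitors of these enzymes, Cst3 was called lower in knockout CMPs (−0.98 ± 0.20) and Cst7, the cystatin of cytotoxic granules, was called lower in knockout L-GMPs than in knockout CMPs (−3.02 ± 0.59, adjusted p = 0.00195), while 3 of the 6 were called higher there, Cst3 (1.33), Stfa3 (1.05) and Cstb (0.74). In that last comparison 10.7% of all genes were called lower and 8.32% higher. By group mean Ctsw was highest in MLL-AF9 knockout CMPs (7.56), overlapping knockout CMPs (6.90) and MLL-AF9 knockout KSLs (6.69), and none of these overlapped the next group, second-recipient knockout L-GMPs (5.45). Its nearest patterns were Ankib1 (0.98), Glul, which makes glutamine (0.97), and Plscr1 (0.97).

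**Figure D4:**
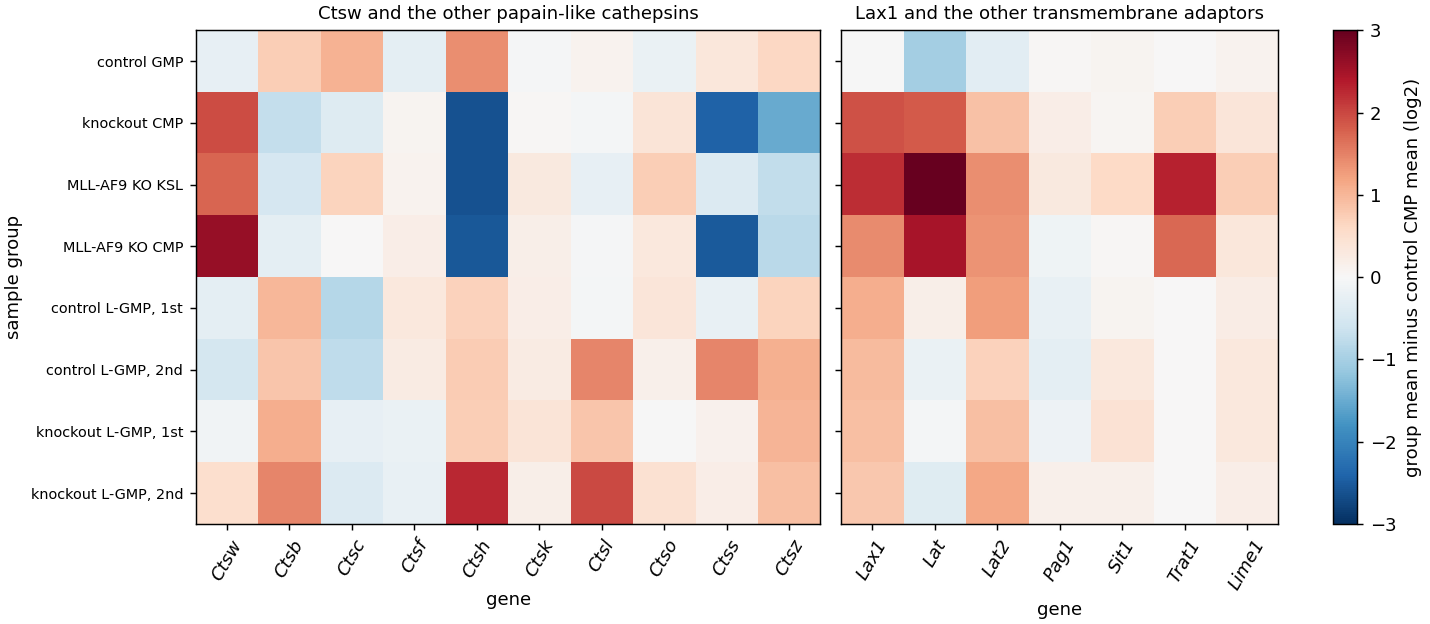
Group mean minus control CMP mean (colour, log2) for Ctsw and 9 other papain-like cathepsins (left) and for Lax1 and 6 other transmembrane adaptors (right), with genes on the x axis and sample groups on the y axis. In knockout CMPs Ctsw is red (1.96) where Ctsh (−2.62), Ctss (−2.42) and Ctsz (−1.50) are blue, and Lat follows Lax1 in the 3 knockout progenitor groups but not in L-GMPs.

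Set against one another over the 9 group means, the members correlated with Pearson coefficients from 0.58 (Phlda1 with Lax1) to 0.90 (Scin with Ctsw), as a description of genes chosen for a shared rise. In leukaemia they parted, with knockout minus control L-GMP differences of 2.80 for Scin, 1.08 for Zbtb10, 0.62 for Ctsw, 0.34 for Phlda1 and −0.16 for Lax1, against 3.29, 2.16, 1.96, 2.61 and 1.90 in CMPs. Whether the L-GMP difference is smaller than the CMP difference was not tested, since the CMP values chose the genes.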

How the data were processed

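The deposited log2 values were made by the authors with RMA, per the submitters' processing notes, from amplified RNA labelled for Affymetrix arrays, and their lowest value is 3; the build and array normalization beyond RMA are not given in the sources used here. Array number limits the precision. Of 34760 probe sets, 21640 had 1 gene symbol, 1321 several and 11799 none; the probe set with the highest mean stood for each of 19937 genes. limma 3.58.1 (R 4.3.3) fitted 9 group means to all 23 arrays, with a trended prior, and p-values were adjusted by Benjamini-Hochberg over all genes. Contrasts weighted groups equally. Members are not tested in comparisons with normal CMPs, the arrays on which they were chosen. The fit was tested on simulated data. The members and lists were chosen with earlier results of these data known, and the gene names given beyond the members are list members past the test, rivals in the selection rank and the 3 closest patterns per member. Figures were drawn with matplotlib. Alternatives were array weights, the compared groups alone, no trend, median centring, quantile normalization, a filter at a mean of 5, the lowest-mean probe set, high Xist as covariate, a replicate block, a block by animal (which pairs the KSLs and CMPs of 2 recipients, whose deviations correlated at 0.45 and 0.26), the knockout leukaemia as 1 sample and each array left out. Leaving out recipient 1 was chosen after seeing the data.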

Additional observations from a re-analysis of the deposited data

Results flagged for a closer look

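Lax1 was higher on every knockout than on every control CMP array, by which it was chosen, and its knockout minus control difference in L-GMPs was −0.16. The difference between these 2 effects was not tested.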

How the results depend on the processing

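Of 850 alternative values for single members, 778 kept their side of the threshold, of which 16 uncalled ones changed sign; 49 lost a call, 23 gained one and 0 reversed a called direction. These values include the comparisons with normal CMPs, whose arrays chose the members, so for those the tally says nothing of stability. The counts of members called, out of 5, are given for comparisons without normal CMPs. With array weights they were 2 for knockout against control L-GMPs (1 in the main fit), 3 for control L-GMPs against MLL-AF9 knockout progenitors (5) and 4 for knockout L-GMPs against control GMPs (1). In fits of the compared groups alone they were 0, 1 and 4 in the same order, and 0 for knockout L-GMPs against MLL-AF9 knockout progenitors (3). The number of all 19937 genes called moved too. Array weights called 5119 in knockout L-GMPs against control GMPs (2068 in the main fit). The smaller fits called 11 in knockout against control L-GMPs (651). Against MLL-AF9 knockout progenitors they called 493 in control (3780) and 347 in knockout L-GMPs (2632). The member counts are therefore not read as particular to the members. Median centring and the filter on low values each gave 2 for knockout L-GMPs, both against control L-GMPs and against control GMPs. In knockout L-GMPs against MLL-AF9 knockout progenitors, Phlda1 lost its call with array weights (adjusted p = 0.0678, limma). In control L-GMPs against the same progenitors, Lax1 lost its call with quantile normalization and with high Xist as a covariate (adjusted p of 0.0571 and 0.151, limma). With the knockout leukaemia as 1 sample, 0 were called against control L-GMPs and 1 against MLL-AF9 knockout progenitors. The cause of these shifts was not tested.

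Leaving out each array gave 0 to 1 for L-GMPs of the knockout against those of controls, 0 to 1 for control L-GMPs against GMPs, 1 to 3 for knockout L-GMPs against MLL-AF9 knockout progenitors and 0 to 2 for MLL-AF9 knockout CMPs against KSLs. Where a group then held 1 array, that array was assumed to vary like the others. The replicate block left the counts of members as they were in comparisons without normal CMPs. It took the genes called in knockout against control L-GMPs from 651 to 409. Apart from the recipients the numbers do not pair the arrays, as same-numbered deviations correlated from −0.19 to 0.18. The block by animal called 1 member in MLL-AF9 knockout CMPs against KSLs. Over all alternatives the genes called in knockout against control L-GMPs ranged from 11 to 2449. All 5 members have a single probe set, so the choice of probe set changed only the other genes.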
